A study of Homo sapiens with 6 samples.

Results

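MTATP6P1, MTCO1P12, MTND2P28 and MTND4P12 are nuclear pseudogene copies of the mitochondrial genes MT-ATP6, MT-CO1, MT-ND2 and MT-ND4. They are 4 of the 33706 genes of a deposited table and were taken by name, and they were chosen by their FPKM values, which were lower with R than without. Values for R are therefore a description, with no test. ES2 cells, a human ovarian cancer line, were sequenced for mRNA after 7 days of culture, with 1 library in each of 6 groups. Control received no drug, and the others received T, G (G4 in its description), R, TR or GR, the last of which are read here as R together with T and R together with G. The study treated cells with T-oligo G4 and RHPS4, a ligand of G-quadruplexes. What the letters T and R stand for is not written out. Both T and G are called oligos below for short, a name that the titles do not give. Although every title names ES2, SKOV3, another ovarian cancer line, is the source name of 4 libraries: G, R, TR and GR. For all 6 libraries one protocol text names a HiSeq and another a NovaSeq instrument, so which sequenced them is not settled.

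Mitochondrial DNA has repeatedly been copied into the nuclear chromosomes during evolution, and such insertions are known as nuclear mitochondrial sequences. They are not thought to encode working proteins, because mitochondria read the genetic code differently from the cytosol. The parent genes are transcribed inside the mitochondrion as long RNAs that are then cut into single mRNAs. MT-ATP6 encodes a subunit of the proton channel of ATP synthase, MT-CO1 a catalytic subunit of cytochrome c oxidase, and MT-ND2 and MT-ND4 membrane subunits of complex I.

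Library totals ran from 73213048 counts in T to 83976498 in GR, and the floor for a gene with 0 counts, taken as 3 counts, was 4.1e-06% of the library of T. Intervals and floors here cover counting error only. The receptor gene ERBB2, known to be amplified in SKOV3, ranged from 0.146 to 0.721 FPKM (fragments counted per kilobase and per library depth), and CDKN2A, a cell cycle inhibitor gene, between 74.4 and 146 FPKM. VIM and KRT18, of the cytoskeleton, lay between 929 and 1919 FPKM and between 62.9 and 249 FPKM, and KRT8 between 15.2 and 38.9 FPKM. EPCAM, an epithelial surface marker, was at or under 0.0563 FPKM, the leukocyte marker PTPRC at or under 0.00665 FPKM and the endothelial marker PECAM1 at or under 0.113 FPKM. Mitochondrial genes took 5.44% to 6.98% of counts in the 3 libraries without R and 0.351% to 0.893% in the 3 with R.

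Of the copies, 3 lie close together on chromosome 1 and MTND4P12 lies on chromosome 5. The coordinates of all 4 and of their parents are the same in the table and in GENCODE v29 on GRCh38. MTND2P28 (ENSG00000225630) spans 629640 to 630683, MTCO1P12 (ENSG00000237973) 631074 to 632616 and MTATP6P1 (ENSG00000248527) 633696 to 634376, all on the plus strand of chromosome 1 and all typed as unprocessed pseudogenes. MTATP6P1 shares 46 bases with the copy MTATP8P1 and 1 base with the copy MTCO3P12 on the same strand. A long noncoding RNA, ENSG00000293331, covers all 3 on the opposite strand. MTND4P12 (ENSG00000247627) spans 134926660 to 134928036 on the minus strand of chromosome 5 and is typed as a processed pseudogene. It lies inside PCBD2, a gene on the opposite strand, and overlaps 0 of the 14 distinct exons that GENCODE v29 gives PCBD2, so it is intronic to that gene.

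In the reference the chromosome 1 copies are nearly identical to their parents. MTATP6P1 matched MT-ATP6 at 98.5% of 681 aligned bases, with 10 substitutions and no gap. MTCO1P12 matched MT-CO1 at 98.6% of 1543 aligned positions, with 20 substitutions and 1 gap position. MTND2P28 matched MT-ND2 at 98.2% of 1044 aligned positions, with 17 substitutions and 2 gap positions. MTND4P12 was the most diverged of the 4, matching MT-ND4 at 95.6% of 1378 aligned positions with 59 substitutions and 1 gap position. The differences of MTATP6P1, counted from 1 at the first base of MT-ATP6 and written with the parent base first, are G19A, C129T, A151C, A175G, A192G, A334G, C417T, C534A, C549T and C642T.

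In each copy most substitutions are transitions, and most lie at the third codon position of the parent, where a change often leaves the amino acid as it was. Transitions make up 8 of 10 substitutions in MTATP6P1, 18 of 20 in MTCO1P12, 17 of 17 in MTND2P28 and 55 of 59 in MTND4P12. The third codon position holds 6, 17, 14 and 45 of them in the same order. The lines below show, for MTATP6P1, MTND2P28 and MTND4P12 and their parents, the 150 bases (the read length in the labels) with the most differences and no gap, since these are the letters by which a read could be placed. Capitals mark the bases that differ. The stretches are chr1:633738-633887 for MTATP6P1 and chr1:630012-630161 for MTND2P28 on the plus strand, and chr5:134927397-134927546 on the minus strand for MTND4P12. Their counterparts are chrM:8569-8718 in MT-ATP6, chrM:4842-4991 in MT-ND2 and chrM:11250-11399 in MT-ND4 on the plus strand, all on GRCh38 and read from GENCODE v29 transcripts.
MTATP6P1: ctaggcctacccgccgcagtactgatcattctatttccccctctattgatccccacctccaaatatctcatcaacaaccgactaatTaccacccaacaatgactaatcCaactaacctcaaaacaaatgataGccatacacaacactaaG
MT-ATP6: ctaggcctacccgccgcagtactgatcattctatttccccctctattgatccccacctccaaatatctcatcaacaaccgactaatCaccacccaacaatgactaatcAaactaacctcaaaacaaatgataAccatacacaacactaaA
MTND2P28: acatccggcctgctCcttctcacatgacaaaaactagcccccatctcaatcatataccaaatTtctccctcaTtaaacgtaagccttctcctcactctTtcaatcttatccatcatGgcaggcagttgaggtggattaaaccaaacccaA
MT-ND2: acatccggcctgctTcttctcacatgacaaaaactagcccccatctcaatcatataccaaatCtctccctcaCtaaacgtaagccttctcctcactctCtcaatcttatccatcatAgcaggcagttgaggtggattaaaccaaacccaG
MTND4P12: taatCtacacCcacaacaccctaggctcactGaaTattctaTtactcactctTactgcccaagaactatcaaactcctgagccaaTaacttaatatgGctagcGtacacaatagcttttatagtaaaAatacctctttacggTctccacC
MT-ND4: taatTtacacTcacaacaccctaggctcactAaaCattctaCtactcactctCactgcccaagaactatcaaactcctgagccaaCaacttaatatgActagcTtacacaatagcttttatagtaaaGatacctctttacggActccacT

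Even these stretches hold only 4 differences in MTATP6P1 and 6 in MTND2P28, against 12 in MTND4P12. The longest run shared with a mitochondrial gene without a mismatch was 141 bases in MTATP6P1, 245 in MTCO1P12, 266 in MTND2P28 and 71 in MTND4P12. Among all 150-base windows of a copy, 15.6% in MTND2P28 and 14.5% in MTCO1P12 were letter for letter those of a mitochondrial gene. None was in MTATP6P1 (0 of 532) or in MTND4P12 (0 of 1228). With 50-base windows the shares were 43.5% for MTND2P28, 49.4% for MTCO1P12, 46.7% for MTATP6P1 and 3.46% for MTND4P12. With 300-base windows the share was 0% for each of these copies. The bases that the mitochondrial DNA of these cultures carries at the differing positions were not analysed here.

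**Figure D1:**
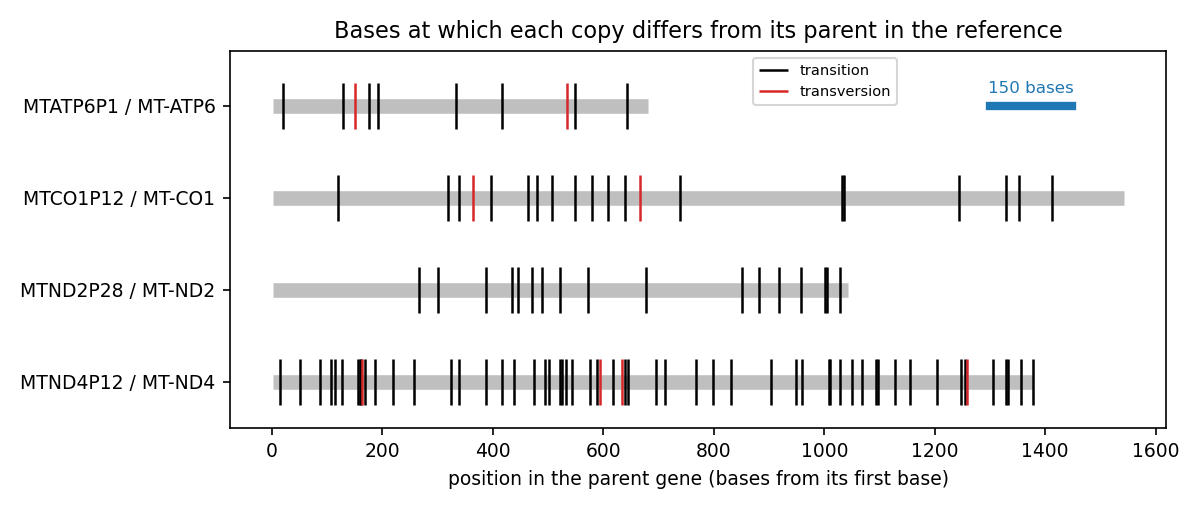
Position of each substitution (vertical tick) between a copy and its parent gene, in bases from the first base of the parent, with transitions and transversions in different colours and a bar of 150 bases for scale. MTATP6P1, MTCO1P12 and MTND2P28 carry 10, 20 and 17 substitutions and MTND4P12 carries 59.

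MTATP6P1 was the most abundant of the copies. Its level was 1168 FPKM in Control, 736 FPKM in T and 748 FPKM in G, and 26.2 FPKM in R, 31.5 FPKM in TR and 43.6 FPKM in GR. All 3 libraries without R were far above the 3 with R, and the groups did not overlap. The same holds for MTND2P28, MTCO1P12 and MTND4P12, and for 18.7% of the 13259 genes that reached 1 FPKM in a library, and nothing is read from it for copies chosen by these values. Among all 33706 genes it ranked 21 by FPKM in Control, 39 in T and 32 in G, and 1561, 1342 and 873 in R, TR and GR.

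MTND2P28 followed in every library, at 222, 164 and 181 FPKM in Control, T and G and at 8.61, 8.93 and 12.6 FPKM in R, TR and GR. MTCO1P12 came next, at 156, 108 and 138 FPKM in Control, T and G and at 2.83, 3.58 and 5.40 FPKM in R, TR and GR. Both were high in all 3 libraries without R and low in all 3 with R, with no overlap. In Control they ranked 117 and 182 among all genes. The order MTATP6P1, MTND2P28, MTCO1P12, MTND4P12 by FPKM was the same in all 6 libraries, with no spread within a group to set it against. It was not the order of the parents, among which MT-CO1 had the highest FPKM in every library.

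MTND4P12 was scarce, with 313 counts in Control, 237 in T and 220 in G, and with 2 counts in R, 4 in TR and 10 in GR. Its level was 2.64, 2.2 and 1.9 FPKM in Control, T and G and 0.0163, 0.0341 and 0.0812 FPKM in R, TR and GR. The groups did not overlap, and the copy reached 1 FPKM only in libraries without R. PCBD2, which covers it on the other strand and encodes a pterin dehydratase that also binds a transcription factor, had 418, 389 and 638 counts without R and 286, 307 and 437 with R. Whether counting used the strand of a read is not stated, so the assignment of reads between MTND4P12 and PCBD2 is uncertain.

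**Figure D2:**
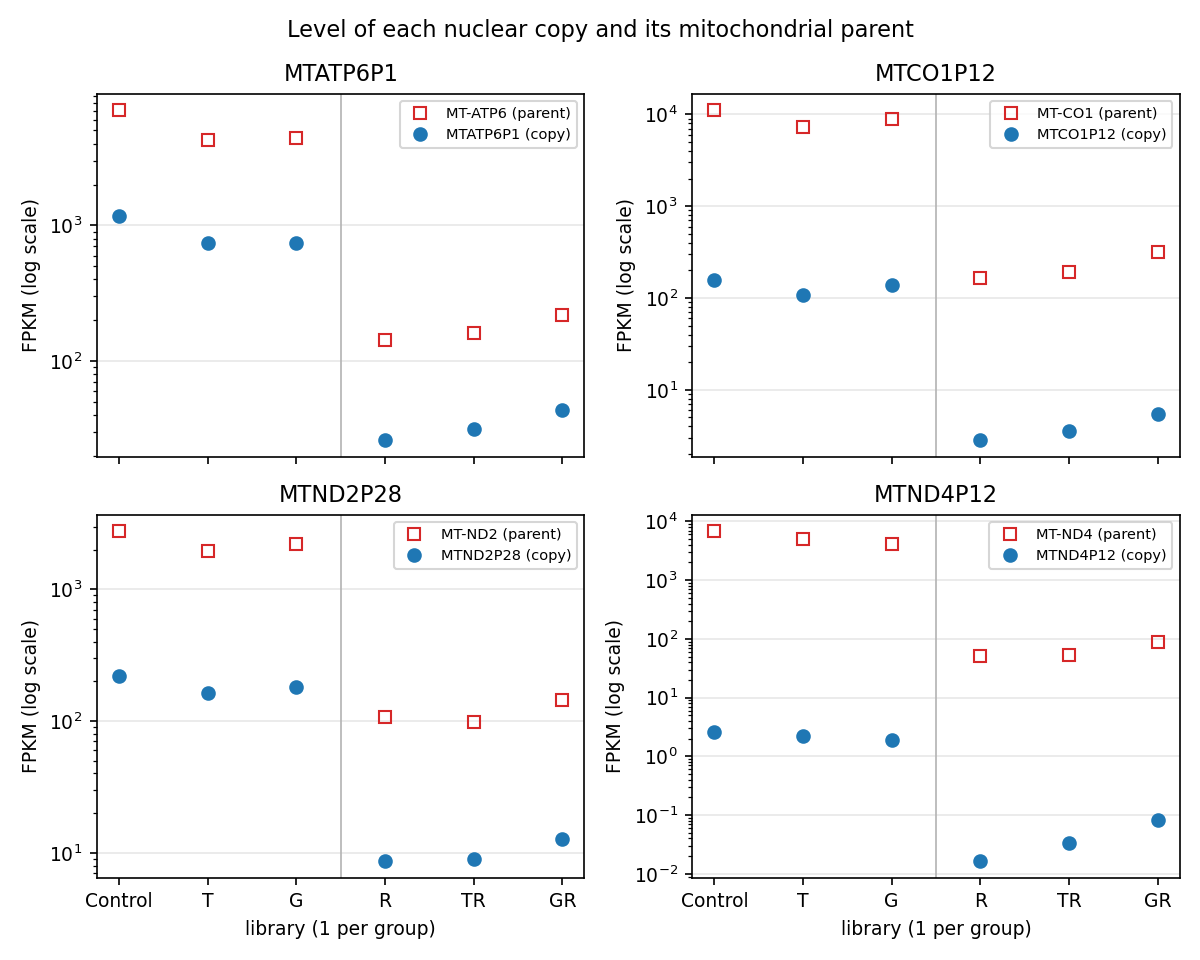
Level of each copy and of its parent in FPKM on a log scale in the 6 libraries, with 1 library per group and a line between the libraries without and with R. In each panel copy and parent are lower in R, TR and GR than in Control, T and G; MTATP6P1 goes from 1168 FPKM in Control to 26.2 FPKM in R.

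The comparison of R asks how the copies differ with R alone, beside T and beside G. MTATP6P1 was 44.5-fold lower in R than in Control by FPKM, 23.3-fold lower in TR than in T and 17.2-fold lower in GR than in G. As a log2 ratio of FPKM + 1 this was -4.66 ± 0.69 (SD, n = 3 pairs, which share no library). The ratio was -4.79 ± 0.50 for MTCO1P12 and -4.11 ± 0.40 for MTND2P28 (SD, n = 3 pairs). All 3 chromosome 1 copies had the deepest ratio in R against Control and the shallowest in GR against G, the only pair of the 3 whose source names give 1 cell line. In bulk RNA, fewer cells that hold a transcript and less of it in each cell cannot be told apart.

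For MTND4P12 the same scale gave -1.63 ± 0.21 (SD, n = 3 pairs), which understates the difference of a scarce gene. By counts per library total it was 161-fold lower in R than in Control (exact 95% interval 44.2 to 1336), 64.5-fold lower in TR than in T (24.9 to 239) and 23.5-fold lower in GR than in G (12.5 to 49.7). These intervals are wide because so few counts were seen with R. An additive fit of oligo and R to the counts of all 6 libraries also gave log2 fold changes for R. These were -4.50 for MTATP6P1, -4.92 for MTCO1P12, -4.04 for MTND2P28 and -5.55 for MTND4P12. The same fit by edgeR called 2.5% of 20922 genes for R, 1.31% lower, from which nothing is read about the copies. With the source-name cell line as a further term, the log2 fold changes for R were -4.02 for MTATP6P1 and -4.60 for MTCO1P12. They were -3.76 for MTND2P28 and -4.45 for MTND4P12.

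In each of the 3 pairs all 4 copies were at least 2-fold lower, a direction that their choice fixes. Among the 13259 genes with at least 1 FPKM in a library, 6.61% were at least 2-fold lower in R against Control, 11.2% in TR against T and 2.07% in GR against G. The median log2 ratio of these genes was -0.13, -0.17 and -0.01 in the same pairs.

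**Figure D3:**
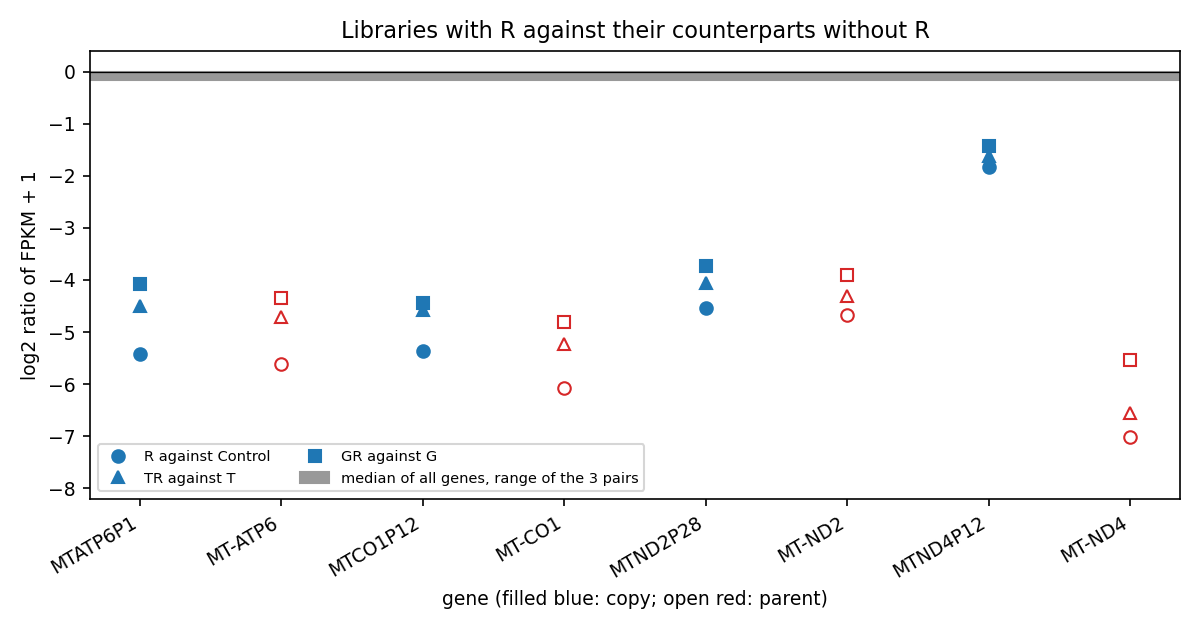
Log2 ratio of FPKM + 1 of each copy and its parent in 3 pairs (R over Control, TR over T and GR over G), with the range of the median of all genes as a band. The mean of MTATP6P1 is -4.66 and that of MT-ATP6 -4.89, while MTND4P12 and MT-ND4 lie at -1.63 and -6.37. The added 1 FPKM compresses the ratio of the scarce copy. By FPKM alone MTND4P12 and MT-ND4 were 162-fold and 132-fold lower in R than in Control. They were 64.6-fold and 95.5-fold lower in TR than in T, and 23.4-fold and 46.6-fold lower in GR than in G.

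The chromosome 1 copies lay close to their parents. MT-ATP6 had a log2 ratio for R of -4.89 ± 0.65, MT-CO1 of -5.37 ± 0.64, MT-ND2 of -4.29 ± 0.38 and MT-ND4 of -6.37 ± 0.76 (SD, n = 3 pairs each). The mean of MTND4P12 on this scale cannot be set beside that of MT-ND4, because the added 1 FPKM compresses it. By FPKM alone MTND4P12 and MT-ND4 were 162-fold and 132-fold lower in R than in Control, 64.6-fold and 95.5-fold lower in TR than in T, and 23.4-fold and 46.6-fold lower in GR than in G. The added 1 FPKM also compresses MTCO1P12, to a lesser extent. By FPKM alone MTCO1P12 and MT-CO1 were 55.2-fold and 67.5-fold lower in R than in Control. They were 30.1-fold and 37.9-fold lower in TR than in T, and 25.6-fold and 28.2-fold lower in GR than in G. Among the 3 chromosome 1 copies MTCO1P12 had the deepest mean ratio and MTND2P28 the shallowest, and MT-CO1 and MT-ND2 held the same places among the 3 parents. All 13 mitochondrial mRNAs, the 4 parents included, were at least 2-fold lower in each pair with R, with median log2 ratios of -5.61 for R alone, -4.77 beside T and -4.34 beside G.

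For the 3 chromosome 1 copies, the share of the copy in the summed counts of copy and parent varied far less than the counts did. MTATP6P1 made up 14.2% of its sum with MT-ATP6 in Control (95% Wilson interval 14.1 to 14.3), 14.8% in T, 14.4% in G, 15.4% in R (14.7 to 16.1), 16.4% in TR, and 16.7% of it in GR (16.1 to 17.3). The highest share was 1.18 times the lowest, while the counts of MT-ATP6 spanned 47.5-fold. All 3 shares without R were lower than the 3 with R, but the interval in R overlaps that in T (14.6 to 14.9).

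MTND2P28 made up 7.43%, 7.78% and 7.59% of its sum with MT-ND2 in Control, T and G, and 7.43%, 8.39% and 7.99% in R, TR and GR. The highest of these shares was 1.13 times the lowest, against a 28.6-fold span of MT-ND2 counts, and the groups without and with R overlapped. MTCO1P12 made up 1.38%, 1.46% and 1.51% of its sum with MT-CO1 in Control, T and G and 1.68%, 1.84% and 1.66% in R, TR and GR. Its shares spanned 1.33-fold against 65.3-fold for the counts of MT-CO1, and the 3 shares with R were all higher than the 3 without.

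MTND4P12 made up 0.0388%, 0.0431% and 0.0457% of its sum with MT-ND4 in Control, T and G. The share was 0.0317% in R (95% Wilson interval 0.00870 to 0.116). It was 0.0638% in TR (0.0248 to 0.164), and GR stood at 0.0909% (0.0494 to 0.167). The intervals in R and TR include all 3 values without R, so a difference in share was not detectable there at this depth. The interval in GR lies above all 3 values without R and overlaps the interval in G (0.0401 to 0.0522). From lowest to highest the share of MTND4P12 spanned 2.87-fold, against 129-fold for the counts of MT-ND4. How reads matching both a copy and its parent were shared out is not stated, so the levels of copies and parents are uncertain to that extent. The part of such reads in the levels of the copies was not tested.

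**Figure D4:**
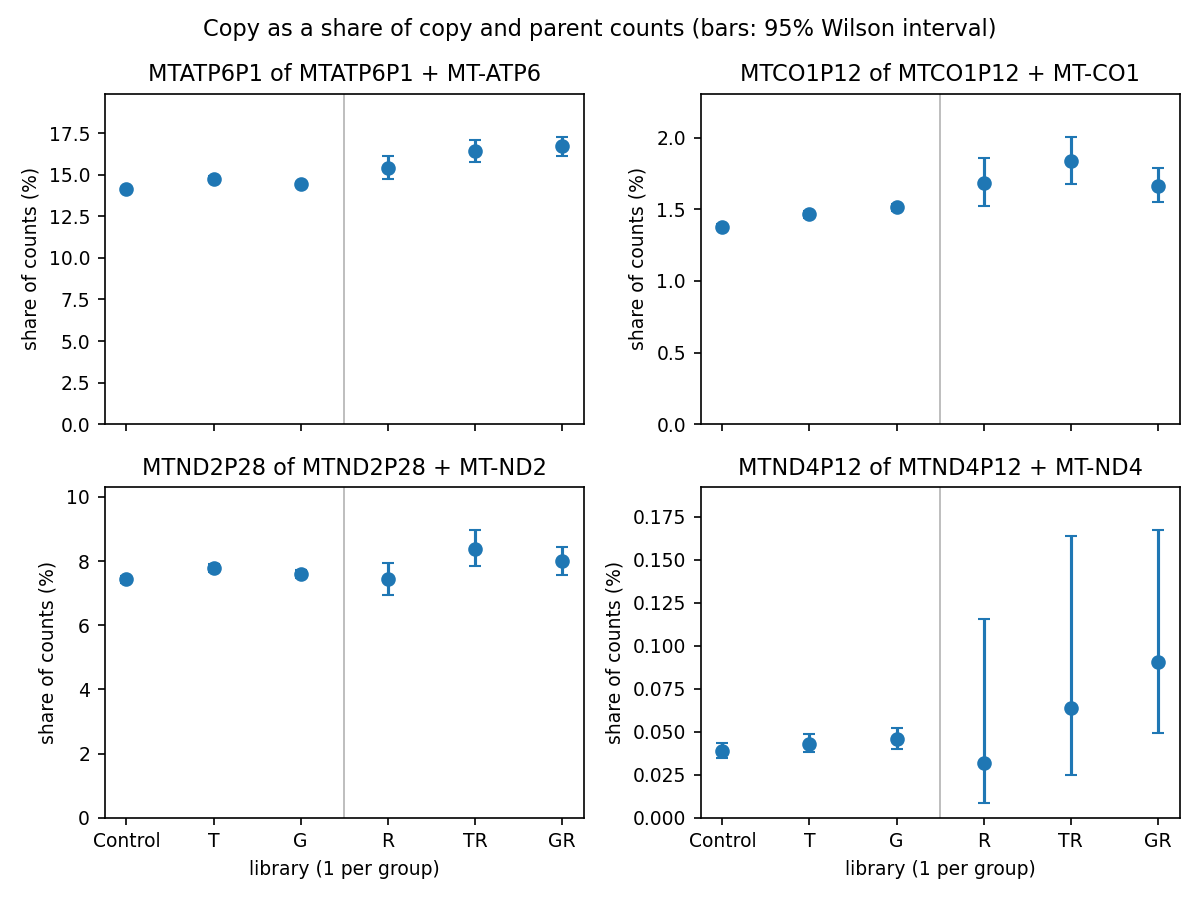
Counts of each copy as a percentage of the summed counts of copy and parent in the 6 libraries, with 95% Wilson intervals (counting error only) and axes that start at 0. MTATP6P1 stays between 14.2% and 16.7% and MTND2P28 between 7.43% and 8.39%.

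Likeness of pattern was also measured against the 13259 genes, as the mean absolute difference over the 6 libraries of log2(FPKM + 1) after subtracting each gene's own mean. This measure holds the lower values with R by which the copies were chosen, so the ranking is a description that is not independent of that choice. The gene nearest to MTND2P28 was its parent MT-ND2, at 0.09, followed by MT-CYB, MT-ND3, MTATP6P1 and MT-ND6 at 0.25 to 0.29. Nearest to MTATP6P1 were MTCO1P12 and its parent MT-ATP6, both at 0.11, then MT-ND3, MT-ND2 and MT-ATP8 at 0.12 to 0.22. Nearest to MTCO1P12 were MTATP6P1, MT-ATP6, MT-ND3, MT-ND5 and the transfer RNA gene MT-TS1 at 0.11 to 0.18, and its parent MT-CO1 ranked 9 at 0.29. MTCO1P12 lay at 2.83 to 5.40 FPKM with R, where the added 1 FPKM compresses it, so this distance depends in part on the scale. MTND4P12 lay nearest to OLMALINC, TMEM154, MTCO3P12, MTATP8P1 and ENSG00000280435, at 0.06 to 0.16, while its parent MT-ND4 ranked 13254 at 2.37, on a scale where the added 1 FPKM compresses genes as low as this copy.

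The 3 chromosome 1 copies stand in a row of 7 copies over 5861 bases, in the gene order of the mitochondrial genome. The other 4 are MTND1P23, MTCO2P12, MTATP8P1 and MTCO3P12, named here after their values were seen. In Control they had 66, 71, 55 and 176 counts, against 19878 for MTND2P28, 20735 for MTCO1P12 and 68346 for MTATP6P1. As a percentage of the parent count in Control these 4 stood at 0.0718%, 0.0134%, 0.0362% and 0.0383%, and MTND2P28, MTCO1P12 and MTATP6P1 at 8.02%, 1.40% and 16.5%.

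Percent identity to the parent over the aligned part overlapped between the abundant and the scarce copies of this row. Whether it bears on their counts was not tested. MTND1P23 matched MT-ND1 at 99.1% of 352 aligned positions, MTCO3P12 matched MT-CO3 at 98.2% of 547, MTCO2P12 matched MT-CO2 at 98.0% of 684 and MTATP8P1 matched MT-ATP8 at 97.6% of 207. The same local alignment gave 98.4% for MTND2P28, 98.5% for MTATP6P1 and 98.6% for MTCO1P12. Identical 50-base windows made up 61.9% of those of MTND1P23, 45.2% in MTCO3P12, 29.1% in MTCO2P12 and 8.23% in MTATP8P1. In MTND2P28, MTATP6P1 and MTCO1P12 they made up 43.5%, 46.7% and 49.4%. Identical 150-base windows made up 4.04% of those of MTND1P23 and 0% of those of MTCO2P12, MTATP8P1 and MTCO3P12, as in MTATP6P1, which had the most counts of the row.

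Counts of these 4 scarce copies, which were named after their values were seen, are given here as a description. MTND1P23 had 66, 78 and 100 counts in Control, T and G and 12, 17 and 21 in R, TR and GR. MTCO3P12 had 176, 104 and 121 counts in Control, T and G and 1, 5 and 2 in R, TR and GR. MTCO2P12 had 71, 48 and 48 counts in Control, T and G and 3, 0 and 0 with R, and MTATP8P1 had 55, 56 and 38 without R and 0, 1 and 0 with R.

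**Figure D5:**
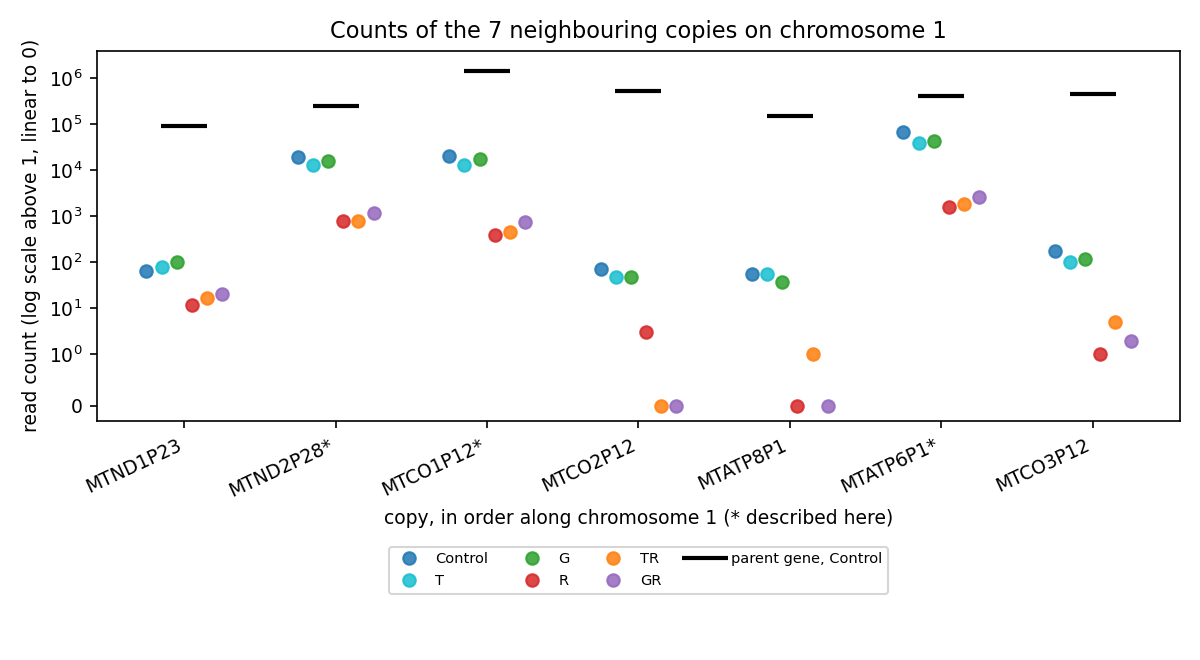
Read counts of the 7 neighbouring copies on chromosome 1 in their order along it, in the 6 libraries, on a scale that is logarithmic above 1 and linear down to 0, with bars for the parent counts in Control. MTND2P28, MTCO1P12 and MTATP6P1 lie at 19878, 20735 and 68346 counts in Control, and their 4 neighbours at 55 to 176.

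Across all genes measured, 59 are named as nuclear copies of mitochondrial genes, the 4 described here and 55 others. The 4 held 99.6% of the counts of all copies in Control (109272 of 109733) and 98.5% in R. They took 0.135% of the library in Control (95% Wilson interval 0.134 to 0.136) and 0.00334% in R (0.00322 to 0.00347). Of the 55 other copies, the 4 neighbours on chromosome 1 reached 1 FPKM in a library, and the remaining 51 had a mean under 10 counts. Summed over libraries, 40 of the 55 had fewer counts with R than without and 15 had more. These are unscaled counts, most of them few. The same tally over all genes is not given here, so nothing is read from it. The 55 had a median identity of 75.1% to the parent over the aligned part, and 8 of them held a 50-base window identical to a mitochondrial gene.

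Pseudogenes of cytosolic ribosomal protein genes, which are copies of nuclear rather than mitochondrial genes, are given beside them. Of 622 such pseudogenes, 137 reached 1 FPKM in a library. Of these 137, 3 were at least 2-fold lower in R against Control, 8 in TR against T and 2 in GR against G, and their median log2 ratios were 0.31, 0.07 and 0.04. They took 0.675%, 0.725% and 0.558% of counts in Control, T and G and 0.916%, 0.877% and 0.632% in R, TR and GR. The difference from the 4 mitochondrial copies was not tested, since these were chosen for their values with R.

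Nuclear genes next to the chromosome 1 copies were at or under 2.07 FPKM in all 6 libraries. These are ENSG00000290385 and ENSG00000250575 before them, and OR4F16, an olfactory receptor gene, and ENSG00000230021 after them, and OR4F16 begins 51340 bases past MTATP6P1. ENSG00000250575 had log2 ratios of -0.29, -0.79 and -0.49 in the 3 pairs with R. The RNA ENSG00000293331 on the opposite strand had 30, 99 and 125 counts in Control, T and G and 26, 49 and 137 in R, TR and GR, so its groups overlapped.

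MTND4P12 also stands among further copies, a row of 5 over 4405 bases that is again in mitochondrial gene order. Its neighbours MTND6P4, MTND5P11, MTND4LP30 and MTND3P25, named after their values were seen, had 0 to 24 counts in any library without R and 0 to 2 with R. MTND4P12 was thus the most abundant copy of its row, at 220 to 313 counts without R. MTND4LP30 shares 7 bases with it.

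The nearest genes to MTND4P12 other than PCBD2 and further copies are TXNDC15 and ENSG00000279799 before it, and CATSPER3, a sperm calcium channel gene, and PITX1, a homeobox transcription factor gene, after it. TXNDC15 had 7.39, 4.92 and 5.72 FPKM without R and 4.25, 4.26 and 3.63 FPKM with R. PITX1 had 3.27, 2.75 and 1.99 FPKM without R and 2.56, 3.93 and 2.70 FPKM with R, so its groups overlapped. CATSPER3 had 25, 9 and 9 counts in Control, T and G and 10, 0 and 16 with R, and ENSG00000279799 had at most 15 counts in a library, too few to set beside MTND4P12.

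T and G were not used to choose the copies, so these comparisons could be tested, and they ask whether the copies differ with either oligo averaged over the cultures without and with R. None of the 4 copies was called for T or for G by edgeR's quasi-likelihood test with Benjamini-Hochberg adjustment over 20922 genes, and 0 had an unadjusted p under 0.05. DESeq2 likewise called 0 of 4, with 0 at an unadjusted p under 0.05. Of all genes tested by edgeR, 0.00478% were called for T and 0.0335% for G.

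For T the log2 fold changes were -0.37 (SE 0.34) for MTATP6P1, -0.25 (SE 0.32) for MTCO1P12, -0.33 (SE 0.29) for MTND2P28 and -0.12 (SE 0.66) for MTND4P12, each with an edgeR adjusted p of 1. For G the log2 fold changes were -0.27 (SE 0.34, edgeR adjusted p = 0.755) for MTATP6P1, 0.06 (SE 0.32, adjusted p = 0.955) for MTCO1P12, -0.17 (SE 0.29, adjusted p = 0.830) for MTND2P28 and 0.17 (SE 0.64, adjusted p = 0.931) for MTND4P12. Each SE here is the size of the log2 fold change divided by the square root of the edgeR F statistic. Leaving out Control turned the sign of all 4 for T, to 0.25, 0.27, 0.02 and 1.42 in the order of the T values. The signs for G turned under several settings, so no direction is given for either oligo.

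Without and with R the single ratios pointed in opposite directions. For T, MTATP6P1 had a log2 ratio of -0.67 without R (T against Control) and of 0.26 with it (TR against R), and for G one of -0.64 without R (G against Control) and of 0.71 with it (GR against R). MTCO1P12 had -0.53 and 0.26 for T and -0.17 and 0.74 for G in the same pairs. MTND2P28 had -0.43 and 0.05 for T and -0.29 and 0.50 for G. None of the 3 chromosome 1 copies was 2-fold different in any of these pairs on this scale, where 4.7% of genes were in T against Control, 0.845% in TR against R, 3.73% in G against Control and 7.3% in GR against R. MTND4P12 is too low with R for this scale to show a 2-fold difference there. By counts per library total, R over TR was 0.479 for MTND4P12 (exact 95% interval 0.0433 to 3.34) and R over GR was 0.202 (0.0215 to 0.947), from 2, 4 and 10 counts. By source name G against Control is the only one of these pairs that crosses cell lines.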

How the data were processed

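Libraries were made from oligo(dT)-selected mRNA with dUTP strand marking, per the labels' protocols. The tools HISAT2 2.2.1, cutadapt 1.9, edgeR, DESeq2 and StringTie 2.1.6 are listed, with no roles, per the submitters' processing notes. The build used for alignment was not given in the sources used here. Per gene and library, the deposited table holds, per the file headers, a read count and an FPKM value, both used as the authors deposited them, and 0 sample columns were left unused. GENCODE v29 holds 92.6% of its identifiers, 99.9% of which overlap the GRCh38 positions.

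Groups were taken from the titles. Pairs of libraries were compared as log2 ratios of FPKM + 1 among genes reaching 1 FPKM in any library. An additive model of oligo and R was fitted to all counts with edgeR 4.0.16 (filterByExpr, TMM, quasi-likelihood; R 4.3.3), using Benjamini-Hochberg adjustment, a threshold of 0.05 and 2 residual degrees of freedom, and was tested on simulated data. Whether the cultures were separate is not stated, and p-values then reflect only how these libraries spread, which may be technical. The closest libraries, R and TR, differed by a chi-square of 103.1 per degree of freedom, so none was counted as a duplicate. DESeq2 1.42.0, other scalings and pseudocounts, no filters, each library left out and the source-name cell line were alternatives. Copies were aligned to parents with Biopython 1.88. Windows were searched on both strands of 37 mitochondrial gene sequences, not of the whole mitochondrial genome as planned, because no genome sequence was used here. A sequence stretch of MTCO1P12 and its parent is not reported here.

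The members and gene lists were chosen with earlier results of these data known. Named genes are the copies, their parents, other copies with a mean of at least 100 counts (there were 0), the 2 nearest genes on each side of each copy and the 5 genes most like each copy.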

Additional observations from a re-analysis of the deposited data

Results flagged for a closer look

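The direction of T and of G differed between cultures without and with R. With 1 library per group this difference was not tested. By arithmetic it equals the log2 ratio of TR against T, or of GR against G, minus that of R against Control. It restates how the ratios for R, by which the copies were chosen, varied between pairs, and is no separate result. For T, the log2 ratio in TR against R minus that in T against Control was 0.92 for MTATP6P1, 0.79 for MTCO1P12, 0.48 for MTND2P28 and 0.21 for MTND4P12. Among the parents it was 0.89 for MT-ATP6, 0.83 for MT-CO1 and 0.47 for MT-ND4, each with a ratio under 0 without R and above 0 with R, while MT-ND2 was under 0 in both. For G, the log2 ratio in GR against R minus that in G against Control was 1.35 for MTATP6P1, 0.91 for MTCO1P12, 0.79 for MTND2P28 and 0.42 for MTND4P12. On this scale the value of MTND4P12 depends on the pseudocount: with 0.1 FPKM its ratios were -0.45 in G against Control and 0.64 in GR against R, so it is not ranked against the other copies. Among the parents the difference for G was 1.27 for MT-ATP6, 1.25 for MT-CO1, 0.76 for MT-ND2 and 1.49 for MT-ND4.

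The values without R share the Control library and those with R share the R library. By counts per library total, R over TR was 0.966 for MTND2P28 (exact 95% interval 0.875 to 1.07) and 0.479 for MTND4P12 (0.0433 to 3.34), so counting error alone leaves the direction of T with R unsettled for these copies.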

How the results depend on the processing

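All 44 log2 fold changes of the copies for R under the alternatives were below 0. Leaving out 1 library gave -4.74 to -4.12 for MTATP6P1, -5.08 to -4.59 for MTCO1P12 and -4.17 to -3.81 for MTND2P28. It gave -6.28 to -4.98 for MTND4P12. For R the cell line term gave -4.02, -4.60, -3.76 and -4.45 in the same order. Of 88 values for T and G, 0 had an adjusted p under 0.05 (smallest 0.540, edgeR or DESeq2) and 17 had the other sign. Scaling by library totals gave, for G, 0.023 for MTATP6P1 and 0.12 for MTND2P28 and, for T, 0.024 for MTND4P12, and moved the median of all genes from 0.09 to 0.37 for G, from 0.02 to 0.14 for T and from -0.06 to -0.26 for R. The cell line term gave, for G, 0.095 for MTATP6P1 and 0.039 for MTND2P28. For T without 1 library, MTATP6P1 ran from -0.90 to 0.25, MTCO1P12 from -0.71 to 0.27, MTND2P28 from -0.65 to 0.016 and MTND4P12 from -0.64 to 1.42. For G without 1 library, MTATP6P1 ran from -0.81 to 0.32, MTCO1P12 from -0.40 to 0.57, MTND2P28 from -0.49 to 0.16 and MTND4P12 from -0.52 to 1.59. The turned values for G were 0.32 and 0.16 without Control and 0.095 and 0.039 without G (MTATP6P1 and MTND2P28), and -0.40 and -0.47 without R and -0.17 and -0.52 without GR (MTCO1P12 and MTND4P12).

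Genes called for R by edgeR numbered 523 (248 higher, 275 lower), 319 with library totals (107 higher, 212 lower), 3632 with DESeq2, 24 with no filter, 82 with the cell line term and 66 to 2231 without 1 library. For T there was 1, with 28 by DESeq2, 0 with no filter (642 at an unadjusted edgeR p under 0.05), 42 with the cell line term and 2 to 50 without 1 library. For G there were 7, with 397 by DESeq2, 0 with no filter (2237 unadjusted), 354 with the cell line term and 12 to 337 without 1 library. The cause was not tested. With a pseudocount of 0.1 FPKM, MTND4P12 had log2 ratios of -4.56, -4.10 and -3.46 in the pairs with R. No paired analysis was possible because replicate numbers only name the 1 library of each group and cannot serve as a block; the pairs for R above are matched by oligo instead. Depth limits MTND4P12, which had 2 to 10 counts with R.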
